A study of Homo sapiens with 6 samples.

Results

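IL11, CCN2, ADAMTSL4, MATN2, FERMT2, MCAM, RCN1, VDAC1 and CDKN1A are 9 genes whose RNA the study's RNA-seq put among those lower after knockdown of NONO as well as of PKM2. The cells were MDA-MB-231, an established human triple-negative breast cancer cell line. That RNA-seq was not analysed here, so the label was taken as given, and what follows describes the chromatin at these genes. Peaks of 6 CUT&Tag libraries were assigned to a gene when they overlapped its span, extended by 5 kb on both sides, by at least 1 bp. The 9 windows came from 19974 protein-coding genes of chromosomes 1 to 22 and X and spanned 549039 bp together, from 13197 bp at CCN2 to 177661 bp at MATN2. The spans came from the RefSeq gene table of GRCh38.p14, and the peak lists use hg38, the same assembly.

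In CUT&Tag an antibody guides a transposase to its target, and the fragments it releases there are sequenced. Each target was profiled in 1 library of NC cells (wild type by genotype label) and 1 library of knockdown cells, NONO-KD for NONO itself and PKM2-KD for H3T11ph and H3K27ac. No group had a second library, so no spread between replicates could be measured and no test was made. All intervals below are 95% intervals that cover counting error only. Intervals of shares treat each peak as a separate draw, although several peaks often lay at the same gene. The methods do not say whether siRNA or shRNA was used for these libraries, and peak lists hold no RNA or protein level by which either knockdown or the cell line could be checked. The lists held from 36583 peaks (H3T11ph, PKM2-KD) to 572970 peaks (H3K27ac, NC).

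The lists of 2 targets were not made alike. In the NC list of NONO 94.6% of the peaks had the narrowest width of that list, 269 bp, and in the NC list of H3K27ac 79.3% had the narrowest width of 112 bp, against 2.05% and 1.19% in their knockdown lists. For NONO and H3K27ac a difference between NC and knockdown therefore cannot be told apart from a difference in how the lists were made. The 2 H3T11ph lists had the same form, with 1.81% and 1.42% of peaks at the narrowest width. Depth, as fragments per kb recovered from the background of each list, was 3.34 and 2.84 for NONO in NC and NONO-KD, 3.35 and 3.42 for H3T11ph in NC and PKM2-KD, and 7.46 and 7.47 for H3K27ac.

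NONO is a nuclear RNA- and DNA-binding protein of the paraspeckle that also acts with transcription factors. PKM2 is a pyruvate kinase isoform that can enter the nucleus and phosphorylate histone H3 at threonine 11, the mark H3T11ph. H3K27ac, acetylation of lysine 27 of the same histone tail, is found at active promoters and enhancers. The 9 genes have unlike roles. IL11 and CCN2 are secreted signals, ADAMTSL4 and MATN2 build the extracellular matrix, FERMT2 and MCAM act in cell adhesion, and RCN1, VDAC1 and CDKN1A work inside the cell.

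The 250 bases before the start site are shown for 4 genes, chosen with their peaks known: CCN2 for its H3T11ph peak, FERMT2 for its NONO and H3K27ac peaks, and IL11 and MCAM for H3K27ac peaks listed there in 1 library only. They were read from the RefSeq promoter table of GRCh38.p14, which had an entry for 8 of the 9 genes, all but MATN2, and each is printed 5′ to 3′ on the strand of the gene, ending at the base before the start site. Capitals mark the bases inside the H3T11ph peak of NC cells at CCN2, inside an H3K27ac peak of PKM2-KD cells at FERMT2 and IL11, and inside an H3K27ac peak of NC cells at MCAM.
CCN2, chr6:131951373-131951622, minus strand: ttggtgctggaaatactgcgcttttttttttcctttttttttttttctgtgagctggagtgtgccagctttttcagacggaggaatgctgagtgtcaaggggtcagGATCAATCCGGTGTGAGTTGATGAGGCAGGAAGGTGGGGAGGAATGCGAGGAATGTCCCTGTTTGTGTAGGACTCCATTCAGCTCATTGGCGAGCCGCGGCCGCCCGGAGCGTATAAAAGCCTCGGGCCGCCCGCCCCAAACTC
FERMT2, chr14:52951051-52951300, minus strand: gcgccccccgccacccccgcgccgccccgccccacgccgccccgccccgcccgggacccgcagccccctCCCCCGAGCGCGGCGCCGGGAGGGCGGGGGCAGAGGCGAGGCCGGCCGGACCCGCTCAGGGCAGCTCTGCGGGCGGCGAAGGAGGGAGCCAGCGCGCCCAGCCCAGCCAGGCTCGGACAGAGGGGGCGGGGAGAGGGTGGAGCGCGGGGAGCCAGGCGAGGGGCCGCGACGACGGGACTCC
IL11, chr19:55370464-55370713, minus strand: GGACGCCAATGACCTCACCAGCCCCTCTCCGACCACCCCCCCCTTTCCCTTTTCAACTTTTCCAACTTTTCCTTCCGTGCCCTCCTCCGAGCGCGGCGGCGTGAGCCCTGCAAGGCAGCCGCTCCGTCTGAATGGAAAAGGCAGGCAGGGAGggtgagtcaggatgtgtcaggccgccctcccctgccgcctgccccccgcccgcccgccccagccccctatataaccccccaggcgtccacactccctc
MCAM, chr11:119317131-119317380, minus strand: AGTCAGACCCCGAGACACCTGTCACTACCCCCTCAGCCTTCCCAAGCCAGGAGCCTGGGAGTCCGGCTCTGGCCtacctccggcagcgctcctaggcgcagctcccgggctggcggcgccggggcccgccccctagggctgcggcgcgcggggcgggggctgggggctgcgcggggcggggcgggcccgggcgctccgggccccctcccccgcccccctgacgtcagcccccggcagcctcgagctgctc

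Of these 250 bases, 144 lay in the H3T11ph peak at CCN2, 181 in the H3K27ac peak at FERMT2, 152 in the H3K27ac peak at IL11 and 74 in the H3K27ac peak at MCAM. The whole FERMT2 stretch also lay in a NONO peak of NC cells. Short motifs were searched in these windows on both strands as plain letter matches, which are no evidence of binding. GGAATG, the core recognised by TEAD factors, matched at 3 places in the CCN2 window, at bases 82, 147 and 156 counted from its 5′ end, and the last 2 lay inside the H3T11ph peak. It matched in no other of the 8 genes and in 10.5% of the 22156 promoter windows of protein-coding genes. TATAAA was found at base 219 of the CCN2 window alone among the 8 genes (9.0% of all windows). TGANTCA, the AP-1 core, was found at base 155 of the IL11 window, starting 3 bases past the end of its H3K27ac peak, and in no other of the 8 genes (5.36% of all windows). GGGCGG, the GC box of Sp1-type factors, was found in all 8 genes and in 53.7% of all windows.

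**Figure D1:**
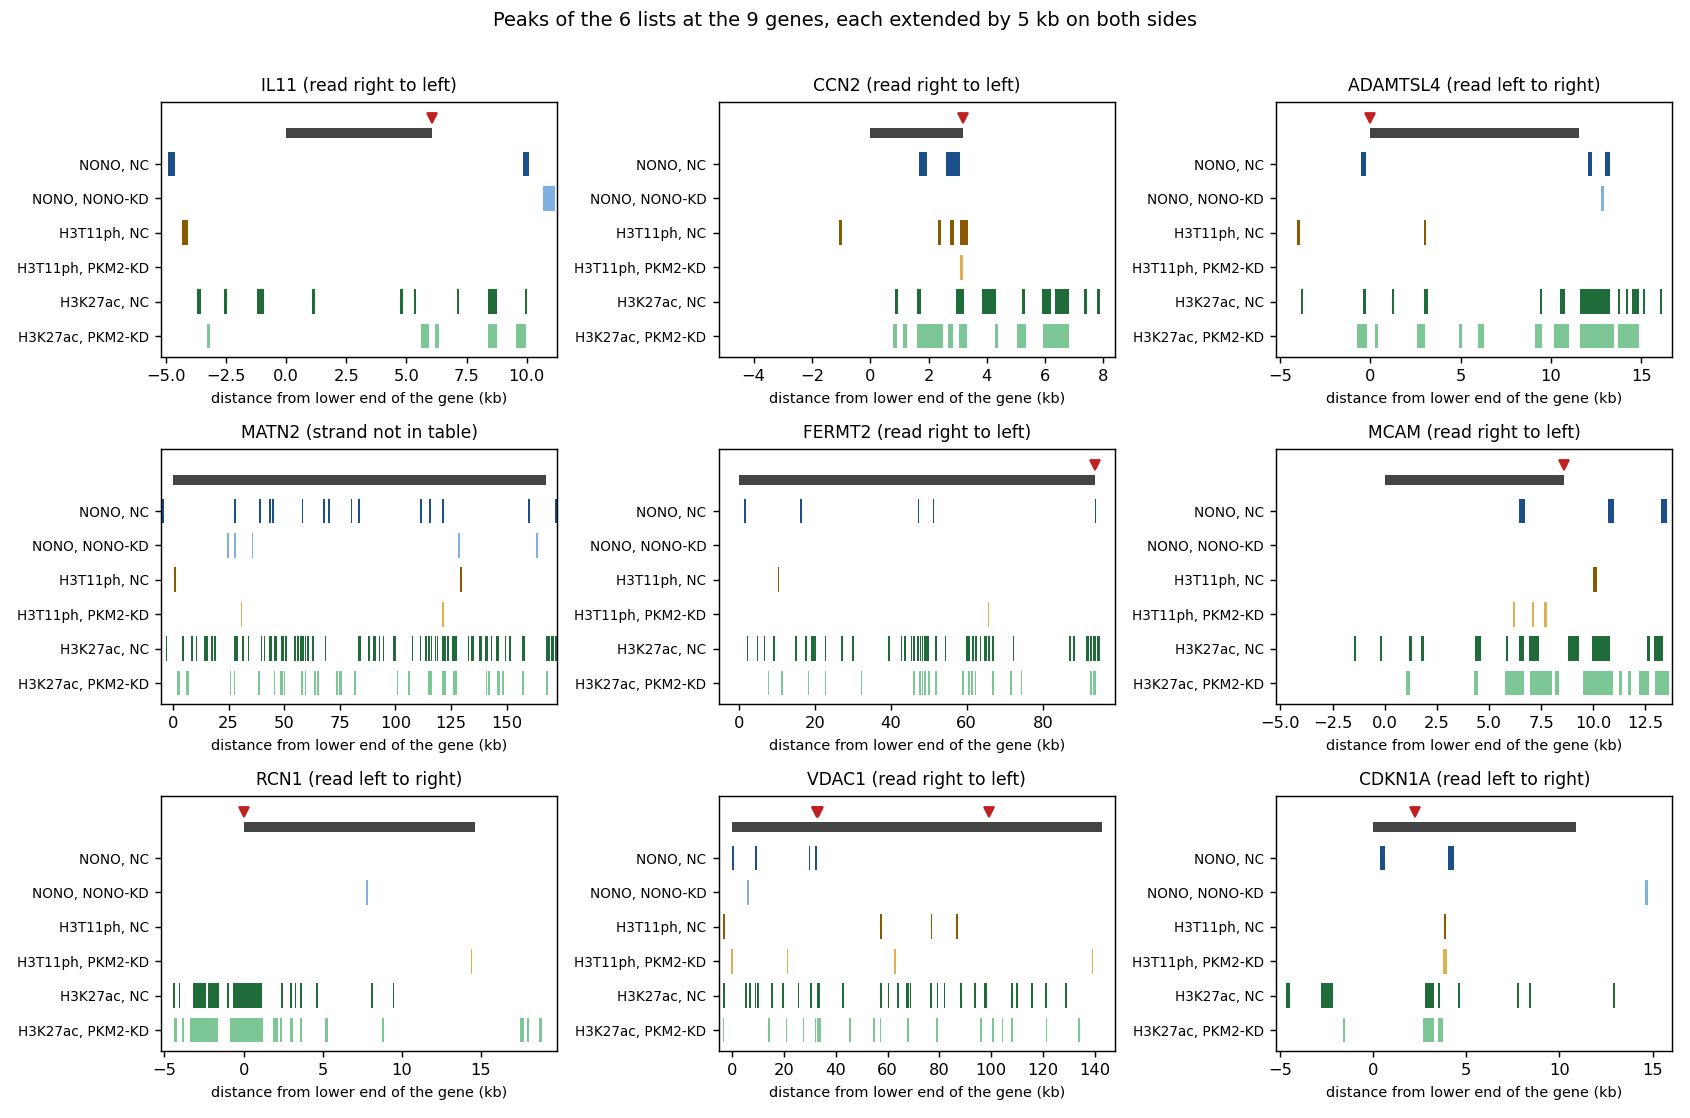
Peaks of the 6 lists (coloured bars, 1 lane per library) along each of the 9 genes, with the horizontal axis in kb from the lower-numbered end of the gene, the gene span as a grey bar and start sites of the promoter table as red triangles; very narrow peaks are drawn at a minimum width so that they stay visible. Acetylated peaks were found at every gene in both libraries, whereas H3T11ph peaks were few, with 16 in NC and 13 in PKM2-KD cells over all 9 genes.

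NONO peaks were found at 8 of the 9 genes in NC cells, all but RCN1, where 77.1% of all protein-coding genes held at least 1. In NONO-KD cells 6 of the 9 held a peak, against 51.5% of all genes. The 9 windows held 36 NONO peaks in NC and 10 in NONO-KD. Fewer peaks were listed in NONO-KD at 8 of the 9 genes (61.8% of all genes), the exception being RCN1 with 0 and 1 peaks (12.0% of all genes had more), and CCN2, FERMT2 and MCAM were the 3 genes with peaks in NC and none in NONO-KD (32.4% of all genes). The NC peaks were 269 bp wide in 33 of 36 cases and had 5 to 392 fragments at the summit, with a median of 86.0. The 10 NONO-KD peaks were 108 to 503 bp wide and had 4 to 105 fragments at the summit, with a median of 41.5. The commonest background at a summit was 0.899 fragments in the NC list and 0.278 in the NONO-KD list. Heights of the 2 NONO lists are therefore not on the same scale. A single NC peak of the 36 (2.78%, Wilson interval 0.492 to 14.2%) was overlapped by a NONO-KD peak, against 2.01% of the whole NC list.

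**Figure D2:**
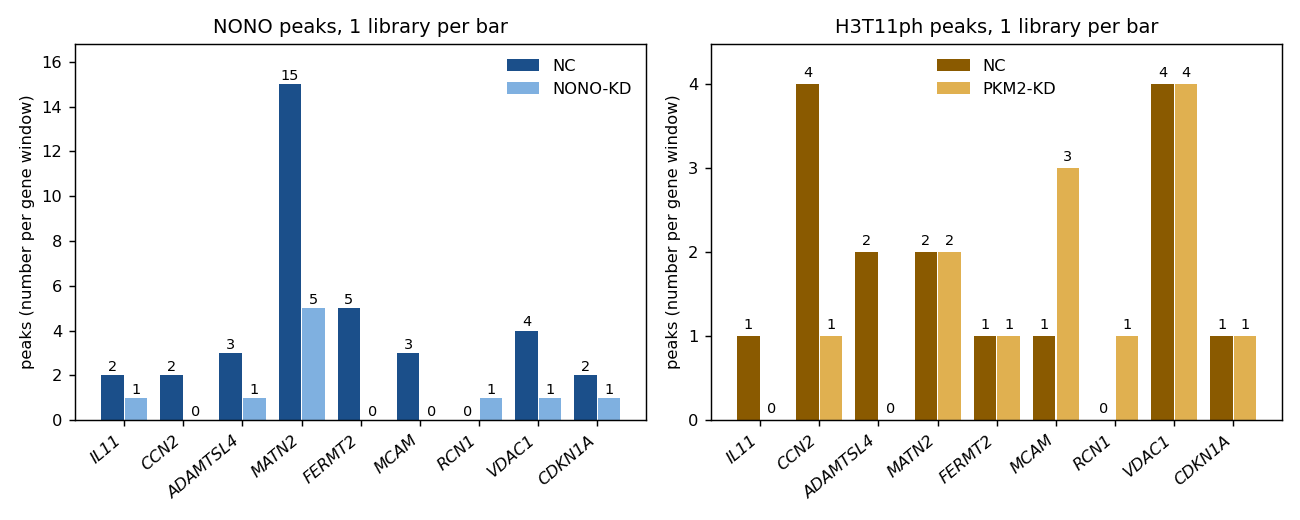
Number of NONO peaks (left) and H3T11ph peaks (right) in the window of each gene, with dark bars for NC and light bars for the knockdown library, 1 library per bar. NONO peaks were fewer in NONO-KD at every gene except RCN1, whereas H3T11ph peaks were fewer in PKM2-KD at 3 genes, more at 2 and equal at 4.

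H3T11ph peaks were found at 8 of the 9 genes in NC (56.6% of all genes) and at 7 in PKM2-KD (53.2%). Their number was lower in PKM2-KD at IL11, CCN2 and ADAMTSL4, where 32.4% of all genes were lower. It was higher at MCAM and RCN1 (27% of all genes) and equal at MATN2, FERMT2, VDAC1 and CDKN1A (13.1% of all genes). IL11, with 1 peak in NC, and ADAMTSL4, with 2, had none in PKM2-KD (19.3% of all genes). The 16 NC peaks were 112 to 258 bp wide with 4 to 140 fragments at the summit (median 34.0), and the 13 PKM2-KD peaks were 91 to 196 bp wide with 7 to 79 fragments (median 35.0). The commonest background at a summit was 0.372 fragments in the NC list and 0.311 in the PKM2-KD list. Heights of the 2 H3T11ph lists are therefore on slightly unlike scales. A PKM2-KD peak overlapped 2 of the 16 NC peaks (12.5%, Wilson interval 3.50 to 36.0%), at CCN2 and CDKN1A, against 5.75% of the whole NC list.

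H3K27ac peaks were found at all 9 genes in both libraries (97.4% of all genes in NC and 89.6% in PKM2-KD). The windows held 210 peaks in NC and 122 in PKM2-KD, and the number was lower in PKM2-KD at 8 of the 9 genes (83.7% of all genes) and equal at RCN1, with 13 in each (5.55% of all genes). The acetylated length, the base pairs covered by peaks, summed to 42750 bp in NC and 42187 bp in PKM2-KD, because the fewer peaks of the second list were wider, with a median width of 211.5 bp against 112 bp. It was lower in PKM2-KD at 4 genes (63.5% of all genes) and higher at 5 (34.9% of all genes). Per 100 kb of window the median over the 9 genes was 9302 bp in NC and 8935 bp in PKM2-KD, against 3646 and 2612 bp over all protein-coding genes. The 9 windows were shorter, with a median of 21530 bp against 34170.5 bp. The 9 genes were also picked by their RNA, whereas the background holds all genes whatever their expression. The part of either in this difference was not tested.

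Within 1 kb of a start site, judged for the 8 genes of the promoter table, NONO peaks stood at 4 genes in NC (CCN2, ADAMTSL4, FERMT2 and VDAC1, 22.3% of 15813 genes) and at none in NONO-KD (7.51%). H3T11ph peaks stood there at CCN2 in NC (16.3%) and at CCN2 and MCAM in PKM2-KD (16.5%). H3K27ac peaks stood there at all 8 genes in both libraries, where 70.4% of all genes had one in NC and 62.9% in PKM2-KD.

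IL11 encodes a secreted cytokine of the IL6 family, which signals through receptors that share the IL6ST chain. Its window (chr19:55364382-55370463 without the 5 kb flanks) held 2 NONO peaks in NC, both outside the gene. The peak at chr19:55359478-55359746, with its summit at 55359559 and 66 fragments, lay 10904 bp downstream of the start site, inside the neighbouring gene GARIN5B. The peak at chr19:55374223-55374491 had its summit at 55374386, 3923 bp upstream of the start site, with 97 fragments, and overlapped acetylated peaks of both H3K27ac lists. In NONO-KD the only peak, chr19:55375077-55375579, was 503 bp wide with 9 fragments at its summit at 55375376.

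The single H3T11ph peak at IL11 in NC, chr19:55360049-55360306, was 258 bp wide with 8 fragments at its summit and again lay in GARIN5B. IL11 had the lowest maximum of acetylation of the 9 genes in both libraries, with 9 peaks of 7 to 16 fragments and 1496 bp in NC and 5 peaks of 10 to 18 fragments and 1437 bp in PKM2-KD. Around the start site the lists differed in place. In NC the nearest peaks were chr19:55369678-55369789, with its summit 745 bp downstream, and chr19:55371470-55371581, 1052 bp upstream, and no peak lay in the 250 bases printed above. In PKM2-KD peaks at chr19:55369991-55370330 and chr19:55370562-55370745 had their summits 177 bp downstream and 126 bp upstream, with 11 and 12 fragments. An upstream region starting at chr19:55372768 was acetylated in both libraries, 366 bp wide with 14 fragments in NC and 379 bp wide with 15 in PKM2-KD. GARIN5B held 3 of the NC peaks and 1 of the PKM2-KD peaks counted here.

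CCN2 encodes a secreted matricellular protein that is a well-known target of the YAP and TEAD transcription factors, and it was the only one of the 8 genes with a listed start site at which NONO, H3T11ph and H3K27ac peaks of NC cells all stood within 1 kb of it. The wider of its 2 NONO peaks in NC, chr6:131950762-131951255, was 494 bp wide, with its summit at 131951003, 369 bp downstream of the start site, and 208 fragments. The other, chr6:131949838-131950106, had 13 fragments at its summit at 131949891, 1481 bp downstream. No NONO peak was listed at CCN2 in NONO-KD. The wider peak overlapped an H3T11ph peak of NC cells and peaks of both H3K27ac lists, and it was the only one of the 36 NONO peaks of NC to overlap an H3T11ph peak of NC (2.78%, against 2.95% of the whole NONO list).

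H3T11ph formed 4 peaks at CCN2 in NC and 1 in PKM2-KD. The highest in NC, chr6:131951259-131951516, was 258 bp wide, covered the start site and had its summit at 131951411, 39 bp upstream of it, with 140 fragments (exact Poisson interval 118 to 165) and a fold of 16.1 over background. The PKM2-KD peak at the same place, chr6:131951269-131951361, was 93 bp wide with its summit at 131951361, 11 bp downstream of the start site, 45 fragments (interval 32.8 to 60.2) and a fold of 12.2. The intervals did not overlap, and the 2 libraries had about the same depth per kb. Heights of the 2 lists are on slightly unlike scales, as given above, and with 1 library each the difference has no replicate check. The pair shared 93 bp, less than 50% of the NC peak. None of the 250 upstream bases printed above lay in the PKM2-KD peak. The other NC peaks, at chr6:131950900-131951045, chr6:131950500-131950611 and chr6:131947091-131947205, had 21, 20 and 24 fragments at summits 354, 765 and 4253 bp downstream of the start site, and no PKM2-KD peak overlapped them.

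Acetylation at CCN2 covered 2076 bp in 9 peaks in NC and 2922 bp in 8 peaks in PKM2-KD. At the start site the NC peak chr6:131951125-131951377 was 253 bp wide with 37 fragments and a fold of 4.22. The PKM2-KD peak chr6:131951229-131951507 was 279 bp wide with 57 fragments and a fold of only 1.55, since the background set there by the peak caller was 36.3 fragments, against 7.31 in the NC list and a commonest background of 0.845 in the PKM2-KD list. The height was thus higher and the fold lower in PKM2-KD, and the counting intervals of the heights overlapped. The 2 folds are not on the same scale, since pileups of the NC list had been scaled by 0.520885. Farther upstream 2 NC peaks, chr6:131954082-131954366 and chr6:131954519-131954983, with 43 and 25 fragments, were overlapped in PKM2-KD by 1 peak of 892 bp, chr6:131954092-131954983, with 48 fragments. Downstream, the NC peak chr6:131949016-131949142 had 31 fragments (interval 21.1 to 44.0) and its PKM2-KD partner 11 (5.49 to 19.7).

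ADAMTSL4 encodes a secreted glycoprotein that binds fibrillin microfibrils. Its 3 NONO peaks in NC lay outside the gene and all overlapped acetylated peaks of both libraries. The peak chr1:150548901-150549169 had its summit at 150548964, 444 bp upstream of the start site, with 91 fragments. Past the end of the gene, chr1:150561439-150561707 and chr1:150562396-150562664 had 81 and 50 fragments at summits 12230 and 13095 bp downstream of the start site. The 1 NONO-KD peak, chr1:150562180-150562324, fell between these last 2, with its summit at 150562239 and 105 fragments, and overlapped neither. The stretch past the gene end thus held NONO peaks in both libraries, at different places (2.01% of the whole NC list was overlapped).

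H3T11ph peaks at ADAMTSL4 were listed in NC only. The peak chr1:150552362-150552491, 2990 bp inside the gene, had 41 fragments at its summit and overlapped acetylated peaks of both libraries. The other, chr1:150545349-150545495, had 14 fragments and lay 3986 bp upstream of the start site. Acetylated length was 3531 bp in NC and 6069 bp in PKM2-KD, the largest gain in base pairs among the 9 genes. The widest peak at the gene stood past its end in both libraries, chr1:150561026-150562696 (1671 bp, 96 fragments) in NC and chr1:150561008-150562895 (1888 bp, 135 fragments) in PKM2-KD, with overlapping counting intervals. At the start site the peak chr1:150548989-150549186 had 30 fragments in NC, and chr1:150548656-150549213 had 52 in PKM2-KD. One NC peak, chr1:150550594-150550705, is shared with LOC124904417.

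MATN2 encodes a matrilin, an adaptor protein that links filaments of the extracellular matrix. Its window was the longest of the 9, and it held the most NONO peaks, 15 in NC and 5 in NONO-KD, or 8.44 and 2.81 per 100 kb. With no start site in the promoter table, its peaks are placed from the lower-numbered end of the gene, chr8:97869064-98036724. The highest NONO peak of NC, chr8:97949181-97949449, lay 80251 bp from that end with 278 fragments. Next came chr8:97912610-97912878 with 178 and chr8:97990138-97990609 with 177, the latter 472 bp wide. The other 12 had 5 to 133 fragments. Of the 15, 5 overlapped an H3K27ac peak of NC and 4 one of PKM2-KD, against 16.8% and 13.5% of the whole NONO list of NC.

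The 5 NONO-KD peaks at MATN2 were 108 to 141 bp wide with 4 to 67 fragments, the highest at chr8:97997662-97997782. The only NC peak found again in NONO-KD over all 9 genes was here. It was chr8:97896826-97897094 with 115 fragments (interval 94.9 to 138) in NC, and chr8:97897004-97897140 with 4 fragments (1.09 to 10.2) in NONO-KD. The pair shared 91 bp and their summits stood 232 bp apart, so that the match joined the flank of a high peak to one of the smallest in the list.

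H3T11ph formed 2 peaks at MATN2 in each library, at different places (5.75% of the whole NC list was overlapped). In NC they were chr8:97869952-97870079, 892 bp inside the lower end of the gene, with 67 fragments, and chr8:97998402-97998513 with 51. In PKM2-KD they were chr8:97899929-97900047 with 45 fragments and chr8:97990314-97990447 with 79, the highest H3T11ph peak of PKM2-KD over the 9 genes. The latter lay inside the 472 bp NONO peak of NC cells and on an acetylated peak of PKM2-KD. Acetylated length was 12846 bp in 75 peaks in NC and 8535 bp in 36 peaks in PKM2-KD, the largest drop in base pairs of the 9. Of the 75 NC peaks 48 had the narrowest width. Of the 15 found again, 3 had fewer fragments in PKM2-KD with intervals that did not overlap, the strongest being chr8:97991151-97991453 with 66 fragments (51.0 to 84.0) in NC and 14 (7.65 to 23.5) in PKM2-KD.

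FERMT2 encodes kindlin-2, which activates integrins at focal adhesions. In NC it held 5 NONO peaks, all reaching into the gene span, and none in NONO-KD. The peak that covered all 250 promoter bases printed above, chr14:52951044-52951312, had its summit at 52951163, 113 bp upstream of the start site, with 23 fragments, and overlapped acetylated peaks of both libraries. The higher NONO peaks stood far inside the gene, chr14:52858785-52859053 with 270 fragments, chr14:52908360-52908628 with 136 and chr14:52873521-52873789 with 81. None of these 3 overlapped a peak of another list. The remaining peak, chr14:52904468-52904736, had 11 fragments and overlapped an H3K27ac peak of NC.

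H3T11ph gave 1 peak at FERMT2 in each library, at different places in the gene (5.75% of the whole NC list was overlapped). They were chr14:52867668-52867813 with 17 fragments in NC and chr14:52922943-52923038 with 21 in PKM2-KD, 83350 and 28059 bp downstream of the start site. The strongest acetylation of all 9 genes lay inside the FERMT2 span. The peak at chr14:52906029-52906515 in NC, 44821 bp downstream of the start site, had 97 fragments (78.7 to 118), and its partner chr14:52906017-52906550 in PKM2-KD had 173 (148 to 201) and a fold of 88.9. A second cluster 32 to 33 kb downstream, at chr14:52917673-52918058 and chr14:52918549-52919271, had 103 and 95 fragments in NC and 93 and 86 in PKM2-KD. The summits of the strongest pair were 1 bp apart. At the start site the acetylated peak was 687 bp wide with 35 fragments in NC and 839 bp wide with 50 in PKM2-KD. Just upstream, the NC peak chr14:52951538-52952219 was 682 bp wide with 33 fragments, its summit 1008 bp from the start site. No PKM2-KD peak overlapped it. The acetylated length over the gene was nonetheless lower in PKM2-KD, 6208 bp in 20 peaks against 8907 bp in 42, and 22 of those 42 had the narrowest width of their list.

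MCAM encodes a cell adhesion receptor of the immunoglobulin superfamily. Its NONO peaks in NC numbered 3 and all overlapped acetylated peaks of both libraries, and none was listed in NONO-KD. Those upstream of the gene were the higher ones, chr11:119321783-119322051 with 164 fragments and chr11:119319241-119319509 with 112, at summits 4713 and 2290 bp upstream of the start site. The one inside, chr11:119314968-119315236, had 22 fragments.

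MCAM was, with RCN1, one of the genes at which H3T11ph peaks were more numerous in PKM2-KD, 3 against 1. The NC peak, chr11:119318518-119318724, had 4 fragments at its summit 1559 bp upstream of the start site. The PKM2-KD peaks, chr11:119314681-119314796, chr11:119315601-119315695 and chr11:119316178-119316318, had 18, 48 and 35 fragments and stood 2394, 1482 and 937 bp downstream of the start site, each on an acetylated peak of PKM2-KD. Acetylated length was 3454 bp in NC and 5433 bp in PKM2-KD. Upstream of the start site the NC peak chr11:119318475-119319319 had 20 fragments (12.2 to 30.9), and the PKM2-KD peak chr11:119318035-119319490 was 1456 bp wide with 47 (34.5 to 62.5). The NC peak that reached into the printed promoter, chr11:119317307-119317848 with 25 fragments, had no partner in PKM2-KD, where the peak nearest to the start site was chr11:119316719-119316882 with 11 fragments, 271 bp downstream. CBL shares 1 of the acetylated NC peaks counted for MCAM.

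RCN1 encodes reticulocalbin, a calcium-binding protein of the endoplasmic reticulum. NONO and H3T11ph each had 0 peaks at it in NC and 1 in the knockdown library. The NONO-KD peak, chr11:32098825-32098969, had 59 fragments at its summit 7763 bp downstream of the start site, and the H3T11ph peak of PKM2-KD, chr11:32105435-32105526, had 9 fragments near the end of the gene. Neither overlapped a peak of another list.

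The start site of RCN1 carried the widest and highest acetylated peak among the 8 genes with a listed start site. The peak over the start site was 1829 bp wide in NC, chr11:32090426-32092254, with 85 fragments and a fold of 31.3, and 2079 bp wide in PKM2-KD, chr11:32090198-32092276, with 115 fragments and a fold of 59.3, and it covered all 250 upstream bases in both. Upstream, NC peaks at chr11:32087883-32088670 and chr11:32088839-32089539 had 27 (17.8 to 39.3) and 18 (10.7 to 28.4) fragments. In PKM2-KD a single peak of 1719 bp, chr11:32087710-32089428, with 89 fragments (71.5 to 110), covered the first and shared 590 bp with the second. The acetylated length over the gene was 4438 bp in NC and 5734 bp in PKM2-KD.

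VDAC1 encodes the main channel of the outer mitochondrial membrane. The promoter table lists 4 start sites for it, 3 of them close together at 134004534, 134004768 and 134004975 and 1 far upstream at 134071011, and distances are to the nearest. NONO formed 4 peaks in NC, of which chr5:134004148-134004416 was at the cluster of start sites, 323 bp downstream of one, with 42 fragments and on an acetylated peak of PKM2-KD. Those farther inside the gene, chr5:133980853-133981121 and chr5:134001590-134001858, had 147 and 113 fragments, and chr5:133972096-133972364 had 14. The 1 NONO-KD peak, chr5:133977959-133978070, had 44 fragments and overlapped none of them (2.01% of the whole NC list was overlapped).

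H3T11ph peaks at VDAC1 numbered 4 in each library without any overlap between the lists (5.75% of the whole NC list was overlapped). The NC peaks, at chr5:133968684-133968801, chr5:134029221-134029361, chr5:134048793-134048917 and chr5:134058642-134058767, had 48, 34, 46 and 34 fragments, and the first 2 overlapped acetylated peaks of both libraries. The PKM2-KD peaks, at chr5:133971703-133971794, chr5:133993216-133993306, chr5:134034594-134034708 and chr5:134110949-134111072, had 7, 41, 22 and 33, and the last lay inside TCF7 as well. None stood within 1 kb of a start site. Per length, VDAC1 was the least acetylated of the 9, with 2712 bp per 100 kb in NC and 3193 in PKM2-KD. At the cluster of start sites NC peaks of 112 and 267 bp, with 19 and 18 fragments, were covered in PKM2-KD by 1 peak of 968 bp, chr5:134004484-134005451, with 33. The start site at 134071011 had no acetylated peak over its 250 upstream bases in either library. LOC124901069 shares 1 NC peak counted for VDAC1, and C5orf15 shares 1 PKM2-KD peak.

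CDKN1A encodes p21, an inhibitor of cyclin-dependent kinases. It carried the highest NONO peak of the 9 genes, chr6:36680491-36680808 in NC, 318 bp wide with 392 fragments at its summit at 36680543, 1829 bp downstream of the start site, on a background of 20.7 fragments. A second NC peak, chr6:36676856-36677124, had 97 fragments 1643 bp upstream of the only listed start site. It lay inside the gene span, 608 bp past its lower end, since the span begins before that start site. Neither overlapped a peak of another list. The NONO-KD peak, chr6:36691086-36691205, lay past the end of the gene with 90 fragments.

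CDKN1A was also the other gene at which H3T11ph was found again. The NC peak chr6:36680251-36680368 was 118 bp wide with 59 fragments (44.9 to 76.1) and a fold of 5.50 at its summit 1542 bp downstream of the start site. The PKM2-KD peak chr6:36680227-36680422 was 196 bp wide with 48 fragments (35.4 to 63.6) and a fold of 11, its summit 57 bp farther on. The intervals overlapped, which does not show that the heights were equal. The fold was higher in PKM2-KD because the background was 3.44 fragments against 9.92. Acetylated length was 1861 bp in 8 peaks in NC and 975 bp in 3 in PKM2-KD, the lowest ratio of the 9 genes at 0.524. Both peaks just past the start site were found again, chr6:36679239-36679732 with 38 fragments against 33 and chr6:36679962-36680073 with 50 against 31, with overlapping intervals for both. The 250 bases upstream of the start site held no peak of any list.

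**Figure D3:**
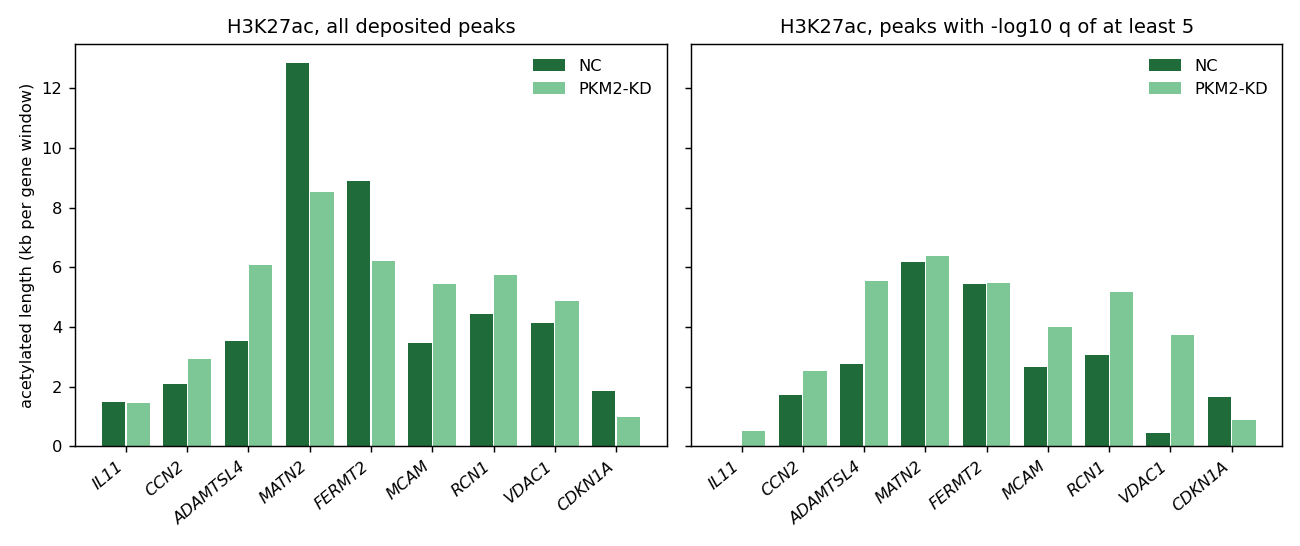
Acetylated length in kb per gene window for NC (dark bars) and PKM2-KD (light bars), from all deposited H3K27ac peaks on the left and from peaks with a −log10 q of at least 5 on the right, 1 library per bar. With all peaks 4 genes were lower in PKM2-KD and 5 higher, and with the stricter peaks only CDKN1A was lower. The q cutoff asked for more fragments in the NC list, whose pileups had been scaled down.

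How many of the 9 genes lost acetylated length depended on which peaks were counted. With peaks of a −log10 q of at least 5 it was lower in PKM2-KD at CDKN1A alone, with 1637 and 862 bp, and higher at 8 genes, where 29.5% of all genes were lower and 61.1% higher. The summed length was then 23896 bp in NC and 34146 bp in PKM2-KD. This cutoff was not alike for the 2 lists, because pileups of the NC list had been scaled by 0.520885 before its q values were set. At MATN2 an NC peak of 13 fragments had a −log10 q of 4.22, and a PKM2-KD peak of 9 fragments had 5.57. Their backgrounds were 0.835 and 0.845 fragments. With the same number of peaks taken from both lists, the strongest first, CDKN1A was again the only gene that was lower (25.2% of all genes). CCN2, ADAMTSL4, MCAM, RCN1 and VDAC1 were higher in PKM2-KD with all peaks and under each of 4 alternative ways of counting, and CDKN1A was lower under all of them. IL11, with 1496 and 1437 bp from all peaks, was higher under all 4. MATN2 was lower under 2 of the 4 and FERMT2 under 1. Of all genes, 69.7% were higher and 25.2% lower with equal list length. With peaks at least 2 times the narrowest width 57.2% were higher and 23.4% lower. With a 1 kb flank 35.2% were higher and 60.1% lower. The share of all genes that kept 1 direction under every way was not counted. The 4 ways are not independent checks of direction, because they fall unequally on the 2 lists. Equal list length cut the NC peaks at the 9 genes from 210 to 97 and left PKM2-KD at 122. Keeping peaks at least 2 times the narrowest width left 48 NC peaks of 210 and 55 PKM2-KD peaks of 122. With the stricter q, MATN2 had 6184 bp in NC and 6364 bp in PKM2-KD, and FERMT2 had 5447 and 5463 bp.

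**Figure D4:**
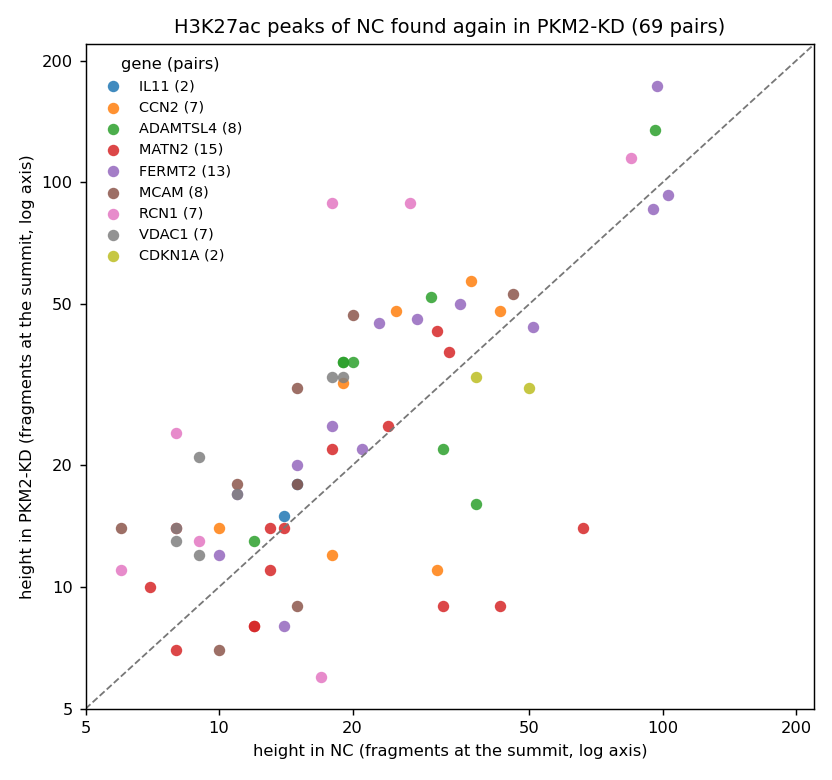
Fragments at the summit of each NC H3K27ac peak found again in PKM2-KD, NC on the horizontal and PKM2-KD on the vertical axis (both log axes), with 1 point per pair coloured by gene and a dashed line of equality. Of the 69 pairs 48 lay above the line, 20 below and 1 on it, and the same count was not made over the whole list.

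Of the 210 acetylated NC peaks at the 9 genes, 69 were overlapped by a PKM2-KD peak (32.9%, Wilson interval 26.9 to 39.5%), against 13.3% of the whole NC list. The narrowest width was held by 62.4% of these NC peaks, against 79.3% of the list. PKM2-KD peaks per 100 kb had a median of 31.1 in the 9 windows and 9.43 over all genes. The part of either in this share was not tested. The interval treats each peak as a separate draw, also the 75 at MATN2. These 69 met 63 PKM2-KD peaks, since some wide peaks overlapped several. In 48 pairs the PKM2-KD peak had more fragments, in 20 fewer and in 1 as many, with medians of 18 in NC and 21 in PKM2-KD. Heights were not compared over the 76093 NC peaks found again in the whole list. The counts of pairs given here are therefore not shown to be particular to these genes. The counting intervals were apart in 9 pairs only. More fragments stood in PKM2-KD in 4 of them (1 at FERMT2, 1 at MCAM and 2 at RCN1, which met the same PKM2-KD peak) and fewer in 5 (3 at MATN2, 1 at CCN2 and 1 at ADAMTSL4). At VDAC1 all 7 pairs had more fragments in PKM2-KD, each with overlapping intervals, and 2 of them met the same PKM2-KD peak. Overlap of separate intervals does not show that heights were equal. The PKM2-KD peak was the wider one in 59 of the 69 pairs, and the summits differed by a median of 78.0 bp. The part of peak width in the heights was not tested.

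Of the 36 NONO peaks of NC, 16 overlapped an H3K27ac peak of NC (44.4%, Wilson interval 29.5 to 60.4%), against 16.8% of the whole NONO list. Of the 16 H3T11ph peaks of NC, 5 did (31.2%, interval 14.2 to 55.6%), against 19.7% of the whole list, and of the 13 H3T11ph peaks of PKM2-KD, 5 overlapped an H3K27ac peak of PKM2-KD (38.5%, interval 17.7 to 64.5%), against 24.2%. The windows of the 9 genes are denser in H3K27ac peaks than the median gene, as given above, and the part of that density in these shares was not tested. These intervals too treat each peak as a separate draw, also the 15 NONO peaks of NC at MATN2.

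**Figure D5:**
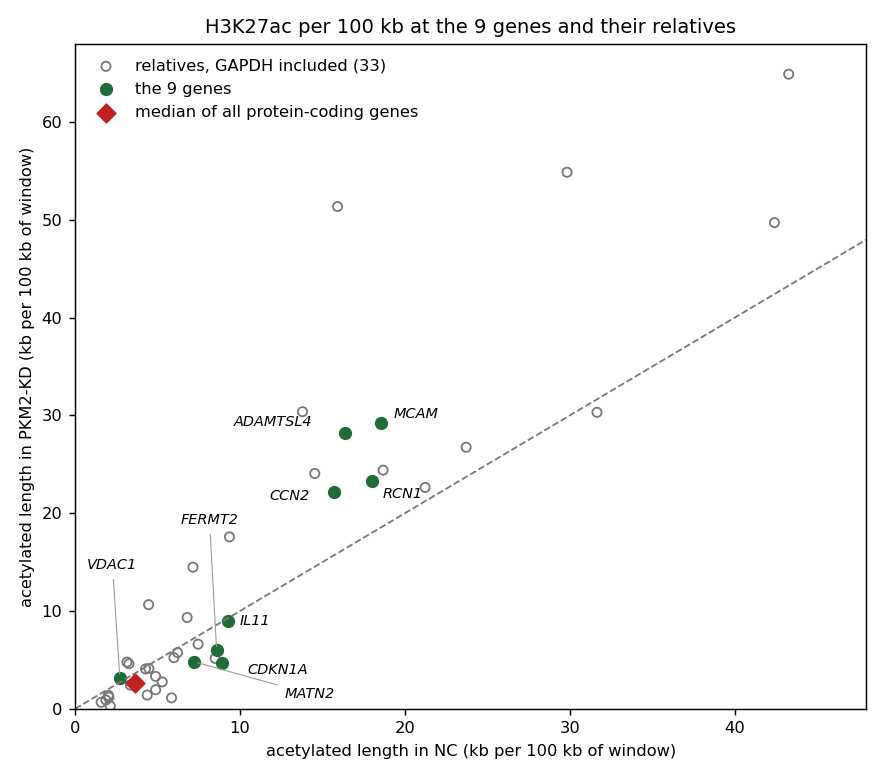
Acetylated length in kb per 100 kb of window in NC (horizontal) and PKM2-KD (vertical) for the 9 genes (filled circles, named), for 32 relatives of these genes and GAPDH (open circles) and for the median of all protein-coding genes (diamond), with a dashed line of equality. MCAM, ADAMTSL4, RCN1 and CCN2 lay well above the median gene, whereas VDAC1 lay next to it.

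The 9 genes were set beside 32 relatives, a chosen list of other members of the IL6, CCN, reticulocalbin, VDAC, p21, ADAMTSL, matrilin, kindlin and MCAM-like families. Acetylated length per 100 kb had a median of 5921 bp in NC and 5190 bp in PKM2-KD in the relatives, between that of the 9 genes and that of all genes. Among the relatives it was highest at CCN1, like CCN2 a well-known target of YAP, with 43283 bp in NC and 64913 bp in PKM2-KD per 100 kb, and in NC it was lowest at RCN2, with 1581 bp in NC and 668 bp in PKM2-KD. It was lower in PKM2-KD at 18 of the 32 relatives and higher at 14. GAPDH, a housekeeping gene, had 29838 and 54883 bp per 100 kb. NONO peaks were fewer in NONO-KD at 23 of the 32 relatives, more at 3 and equal at 4, and H3T11ph peaks were fewer in PKM2-KD at 11, more at 11 and equal at 6.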

How the data were processed

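Peak lists of 6 CUT&Tag libraries were analysed, 1 per group. Per the labels, the submitters' processing notes name hg38, FastQC 0.11.9, cutadapt 1.18, SAMtools 1.3.1, MACS2 2.1.1.20160309 and DESeq2; the aligner and any control library are not given in the sources used here. Each deposited list gives, per peak, a score (the whole part of 10 times −log10 q) and a fold ratio of summit pileup to background. It also gives −log10 p and −log10 q values and a summit. The smallest −log10 q of a list ranged from 1.30 to 1.32. Raw read totals were not used here.

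The 9 genes, their 32 relatives and the comparisons were chosen with earlier results of these data known. Of the relatives, those with the highest and the lowest acetylated length per 100 kb in NC were named, besides GAPDH and each protein-coding gene sharing a peak with a member. Spans came from the RefSeq gene table and start sites from the promoter table of GRCh38.p14. The background of each count was all 19974 protein-coding genes, or 15813 with a start site.

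Summit heights in fragments were recovered as the whole number that, with the deposited fold, gives the deposited −log10 p within 0.002 by the Poisson tail, for −log10 p up to 600; at least 99.5% of the peaks tried per list gave 1 height, and all 407 peaks of the 9 genes did. Pileups of the H3K27ac NC list had been scaled by 0.520885. Heights and backgrounds were scaled back, whereas folds and q values were left as deposited. The recovery was tested on simulated peaks. Shares have Wilson and heights exact Poisson intervals. Alternatives were a −log10 q of at least 5, a 1 kb flank, peaks at least 2 times the narrowest width, lists of equal length, summits inside the window and an overlap of 50%. Python 3.11.15, numpy 2.4.6, pandas 2.3.3, scipy 1.17.1 and matplotlib 3.10.9 were used.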

Additional observations from a re-analysis of the deposited data

How the results depend on the processing

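With a −log10 q of at least 5, H3K27ac peaks in NC numbered 80 and covered 23896 bp. Acetylated length was then 10250 bp higher in PKM2-KD than in NC rather than lower (main value −563 bp). Under this cutoff 1 gene lost acetylated length (29.5% of all genes), and 0% of NONO and 42.5% of H3K27ac NC peaks were found again. With a 1 kb flank the difference was −1825 bp. With peaks at least 2 times the narrowest width, the 9 genes kept 0 NONO peaks in NC and 1 in NONO-KD, and 2 and 1 H3T11ph peaks. They kept 48 and 55 H3K27ac peaks (22842 bp in NC, 8699 bp more in PKM2-KD). In this setting 0 genes had fewer NONO peaks (4.01% of all genes) and 2 lost acetylated length (23.4% of all genes). Of H3T11ph NC peaks 0% and of H3K27ac NC peaks 56.25% were found again, and the share for NONO has no value there. With lists of equal length, NONO NC peaks numbered 20 and H3K27ac NC peaks 97 (27014 bp, 15173 bp more in PKM2-KD). In that setting 1 gene lost acetylated length (25.2% of all genes), and 48.5% of H3K27ac NC peaks were found again. With an overlap of 50%, 0% of NONO, 6.25% of H3T11ph (1 of 16, the CCN2 start-site pair being lost) and 26.7% of H3K27ac NC peaks were found again. Fewer peaks enter each stricter setting by construction, and for H3K27ac more of them left the NC list. The q values of that list rest on scaled pileups, so the q cutoff asked for more fragments in NC than in PKM2-KD. Beyond that the cause was not tested. Counting only summits inside the window moved none of 15 values by over 1.5 times. No paired analysis was possible because every group held 1 library and no result came from a test. With 1 library per group, the spread between replicates is unknown for every value here, and the depth sets only the counting intervals.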
